A study of Homo sapiens with 36 samples.

Results

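The comparison of all-trans retinoic acid (ATRA) with untreated control at 24 h was examined in NB4, an established human cell line from acute promyelocytic leukaemia in which PML is fused to RARA. Its members were the arrays whose titles give ATRA without atorvastatin at 24 h, exp.n 18, 30 and 42, and those whose titles give neither agent at 24 h, exp.n 17, 29 and 41, so 6 of the 36 arrays of the series. The other arrays came from the same line at 8 and 48 h, or from cells given atorvastatin, a statin, alone or after ATRA, in 12 groups of 3. All cells grew in RPMI medium with fetal bovine serum, and in the combination ATRA came 1 h before the statin. Total RNA was hybridised to Illumina Sentrix Human-6 BeadChips, on which 15308 named genes were tested. The series text gives the 3 arrays of a group as independent experiments on different days; they are cultures of 1 line, and their number limits the precision of every value below. The dose of ATRA and the chip of each array are not given in the sources used here.

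Retinoic acid receptors bind DNA as partners of retinoid X receptors and change transcription when they bind ATRA. In acute promyelocytic leukaemia the PML-RARA fusion represses such target genes and holds myeloid cells at the promyelocyte, a stage packed with azurophil granules. Pharmacological ATRA relieves that repression and leads to degradation of the fusion, and the cells then take on features of neutrophils, among them the oxidase that makes superoxide.

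Exp.n 18 stood apart from the other ATRA arrays at 24 h, so values are given from all arrays as labelled and again without it. At 48 h, whose arrays are not among those of 24 h, 230 genes (1.5% of those tested) were called higher with ATRA by at least 1 on the log2 scale and 108 (0.706%) lower by at least 1, in a limma fit without exp.n 18 and 19. Against the 24 h control mean, the median of the 230 genes was 1.24 higher on exp.n 30, 1.20 higher on exp.n 42 and 0.11 higher on exp.n 18. The 3 control arrays lay between -0.02 and 0.01 on the same measure. For the 108 genes the medians were -0.84, -0.88 and -0.03 on exp.n 30, 42 and 18. Exp.n 19, labelled atorvastatin alone at 24 h, gave 1.12 and -0.84, where the other atorvastatin arrays gave 0.04 and 0.00 for the first set.

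**Figure D1:**
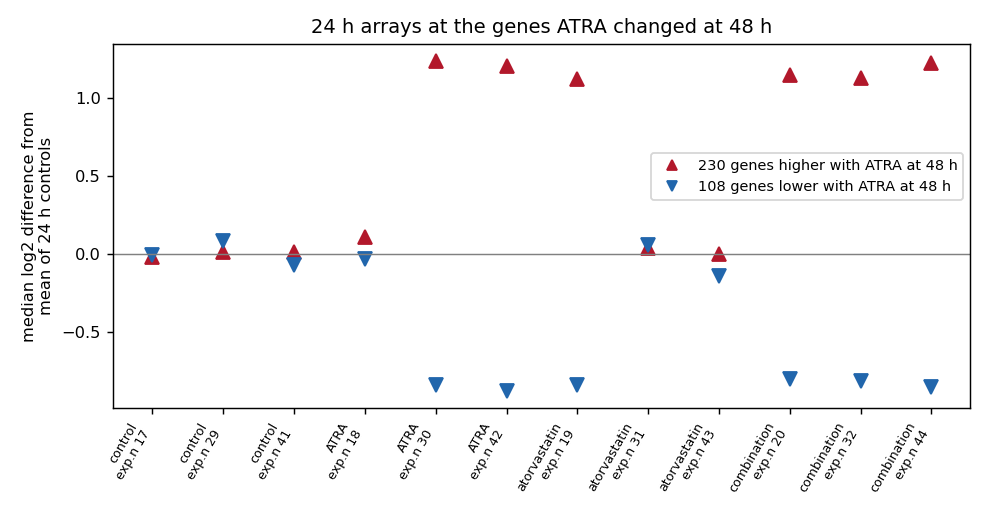
Median log2 difference of each 24 h array (x axis) from the mean of the 24 h controls, over the 230 genes higher and the 108 genes lower with ATRA at 48 h. Exp.n 30 and 42 lay at 1.24 and 1.20 for the first set, exp.n 18 lay at 0.11 beside the controls, and exp.n 19, labelled atorvastatin, lay at 1.12.

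KLF2, a zinc-finger transcription factor that statins induce, read 6.47, 6.35 and 6.19 on control arrays exp.n 17, 29 and 41. It read 6.49 and 6.44 on exp.n 30 and 42, 8.51 on exp.n 18, 8.88 and 9.11 on the atorvastatin arrays exp.n 31 and 43, and 6.49 on exp.n 19. HMGCS1, the cholesterol-pathway synthase that rises when sterol synthesis is blocked, read 9.39 on exp.n 18, against 8.14 to 8.55 in the controls and 9.33 and 9.49 on exp.n 31 and 43. It read 7.86 and 7.68 on exp.n 30 and 42 and 7.43 on exp.n 19. On the combination arrays exp.n 20, 32 and 44 KLF2 read 8.48, 8.38 and 8.83, and HMGCS1 read 8.39, 8.65 and 8.80. Exp.n 18 thus lay among the combination arrays in KLF2 and with exp.n 31 and 43 in HMGCS1. NCF1, described below, read 13.77, 13.52 and 13.87 on exp.n 20, 32 and 44, and 13.66 on exp.n 19. It read 7.88 on exp.n 18, against 7.41 to 7.70 in the controls. ASB2, also described below, read 10.36, 10.35 and 10.54 on the combination arrays and 10.70 on exp.n 19. On exp.n 18 ASB2 read 6.71, against 6.77 to 7.21 in the controls. In NCF1 and ASB2 exp.n 18 thus lay far from the combination arrays. Exp.n 19 lay below the controls in HMGCS1, as exp.n 30 and 42 did. In KLF2 it was near the controls and near exp.n 30 and 42 alike. Across the 15308 genes exp.n 18 had a Pearson correlation of 0.977 and 0.974 with exp.n 30 and 42 and of 0.985 to 0.988 with the controls, while exp.n 30 and 42 had 0.990 with each other. The library labelled ATRA exp.n 18 was not relabelled, and a second fit left out exp.n 18 and exp.n 19, so that ATRA then rested on exp.n 30 and 42. Exp.n 19 belongs to neither group compared and enters only the common estimate of spread.

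With all arrays as labelled, limma called 92 of 15308 genes, 70 higher and 22 lower, at a Benjamini-Hochberg adjusted p below 0.05; 0.601% of genes tested were called, 0.457% as higher and 0.144% as lower, and 1454 had an unadjusted p below 0.05. Without exp.n 18 and 19, 622 genes were called (4.06%), 399 higher (2.61%) and 223 lower (1.46%), of which 164 rose and 44 fell by at least 1 on the log2 scale. Of the 92 genes, 91 were also among the 622. The exception was CDKN1A, 1 of the 32 genes set to be named whatever their values. Leaving out exp.n 18 alone gave 471 calls (3.08%); leaving out exp.n 30 or exp.n 42 gave 3 each, and leaving out control exp.n 17, 29 or 41 gave 21, 9 and 25. Without exp.n 18 and 19 a further loss of exp.n 30 or 42, which leaves 1 ATRA array that is assumed to vary like the other groups, gave 332 and 335 calls. A further loss of control exp.n 17, 29 or 41 gave 483, 500 and 532. In this second fit 92 of the 101 named genes were called, and none of the 92 changed direction in any of these 5 fits. Most named genes were chosen because they passed the threshold on these same arrays. Neither the count of named genes called nor their kept direction is thus independent support. With all arrays 32 named genes were called. Of these 11 lost the call in the authors' normalized values (CCL2, CD52, CDKN1A, FBP1, FGR, HK3, INHBB, IRF1, NCF1, PLAAT4 and TAMALIN), and all of these but TAMALIN, 10 genes, also lost it without background correction. With the mean over a gene's probes 12 lost it, BCL11A, CDKN2D and TNFRSF10B beside CCL2, CD52, CDKN1A, FBP1, FGR, HK3, INHBB, IRF1 and NCF1. With experiment as a block, 6 further named genes passed the threshold with all arrays: TGM3 at 2.31, CD79A at 1.52, CHST13 at -1.35 and CST7 at -1.09 (limma adjusted p = 0.048, 0.047, 0.047 and 0.047), and ITGAX at 1.18 and MMP9 at 0.91 (adjusted p = 0.036 and 0.025).

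**Figure D2:**
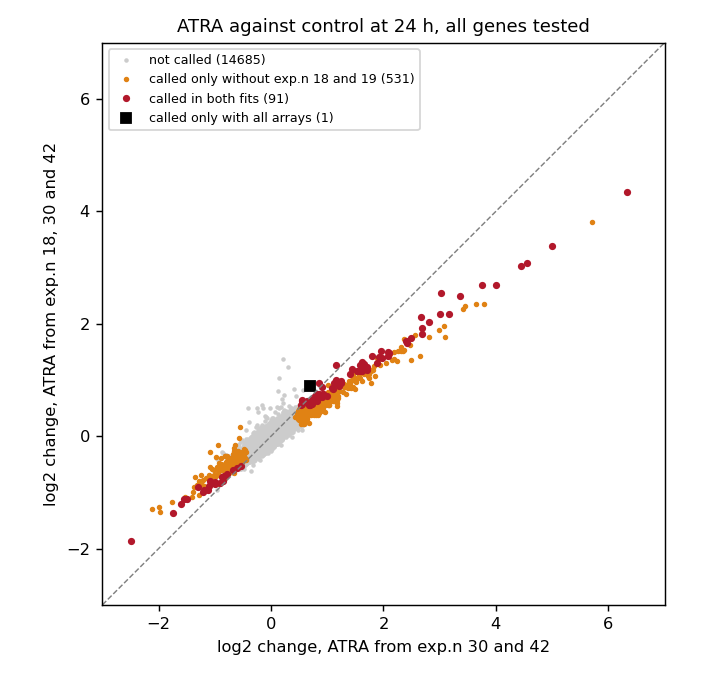
Log2 change of ATRA against control at 24 h for all 15308 genes, from exp.n 30 and 42 (x axis) and from all 3 arrays labelled ATRA (y axis), with the line of equal change dashed. Colours show in which fit a gene was called, so genes called without exp.n 18 and 19 were chosen on the arrays of the x axis; NCF1 changed by 6.33 on the x axis and by 4.34 on the y axis.

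Median raw signals were 185.4, 99.0 and 94.9 on control exp.n 17, 29 and 41 and 118.2, 89.4 and 95.1 on ATRA exp.n 18, 30 and 42 before normalization. In experiment 1 the 6 arrays without ATRA in their labels, exp.n 19 among them, read 152.2 to 185.4 and the 6 with ATRA in their labels, exp.n 18 among them, read 101.8 to 118.2, while all arrays of experiments 2 and 3 read 78.5 to 100.8. In experiment 1 brightness went with the ATRA label, exp.n 18 and 19 included. In experiments 2 and 3 the ranges with and without ATRA overlapped (85.2 to 93.3 against 88 to 100.8, and 78.5 to 98.8 against 81 to 99.8). Label and chip cannot be told apart in experiment 1, as the chip of each array is not given. The part of brightness in the results was not tested. Signals below are normalized log2 intensities with a median over all probes of 6.34; a level near that value is close to background, and a change there is compressed. Quantile normalization gave a median change over all genes of -0.01 in both fits, while scaling each array to its median gave 0.12 with all arrays and 0.03 without exp.n 18 and 19. Under median scaling the calls were 330 higher and 4 lower with all arrays (98.8% higher, against 76.1% here) and 322 higher and 75 lower without exp.n 18 and 19 (81.1% against 64.1%). Of the 92 named genes called without exp.n 18 and 19, 83 stayed called under median scaling; the exceptions were CYBB, KRT8 and PROS1 among the rises and CD44, CD9, HMGCS1, MPO, TNF and XBP1 among the falls. Of the 32 called with all arrays 10 lost the call under median scaling, the rise HK3 and 9 falls, BCL11A, ETV6, IGFBP4, INHBB, IRX3, MS4A3, MS4A7, PLAC8 and TAMALIN. Counts for the lists below are to be read against the 4.06% of all genes called without exp.n 18 and 19; a share near it is no result about a list.

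Of the 25 gene lists examined, the one of retinoid receptors, retinoid-metabolising enzymes and known retinoid-induced genes had the highest median change. Of its 23 measured members 13 rose and RXRA fell without exp.n 18 and 19, with a median change of 1.46 (all genes -0.01); with all arrays 5 rose, PLAAT4, INAVA, TNFAIP2, DHRS9 and CYP26B1, and none fell. The list was chosen with earlier results of these data known, so its counts describe it and are no independent support. Changes below carry the SE of the limma fit, and each adjusted p is Benjamini-Hochberg over all genes.

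TNFAIP2, a gene found as a retinoic acid target in leukaemia cells, and STRA6, the receptor through which cells take up retinol, hold the half-site AGGTCA of retinoic acid receptors in their promoter windows. RARA holds the half-site too, but its window is not shown. TNFAIP2 and STRA6 are shown with RARB. The promoter of this receptor gene carries the classical response element of direct repeats spaced by 5 bases (DR5, searched on both strands). STRA6 was chosen after its values were seen. The sequences are RefSeq's, build GRCh38.p14, 5′ to 3′ on the gene's strand, 250 bases before the start and 50 from it on, at chr14:103123211-103123510 (plus strand), chr15:74212210-74212509 (minus strand) and chr3:25428013-25428312 (plus strand). Capitals mark the half-site in TNFAIP2 and STRA6, here as its reverse complement, and the DR5 in RARB.
TNFAIP2: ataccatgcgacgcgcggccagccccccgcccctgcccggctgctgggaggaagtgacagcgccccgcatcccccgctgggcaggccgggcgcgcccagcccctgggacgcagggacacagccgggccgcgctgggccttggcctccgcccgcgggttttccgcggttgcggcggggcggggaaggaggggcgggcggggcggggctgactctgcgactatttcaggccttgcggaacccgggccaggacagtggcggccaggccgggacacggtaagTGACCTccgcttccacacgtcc
STRA6: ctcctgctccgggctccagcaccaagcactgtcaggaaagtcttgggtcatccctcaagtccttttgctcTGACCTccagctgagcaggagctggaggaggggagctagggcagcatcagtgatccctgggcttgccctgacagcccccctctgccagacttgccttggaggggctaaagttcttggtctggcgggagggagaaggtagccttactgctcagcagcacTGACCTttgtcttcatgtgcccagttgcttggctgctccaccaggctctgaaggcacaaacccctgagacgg
RARB: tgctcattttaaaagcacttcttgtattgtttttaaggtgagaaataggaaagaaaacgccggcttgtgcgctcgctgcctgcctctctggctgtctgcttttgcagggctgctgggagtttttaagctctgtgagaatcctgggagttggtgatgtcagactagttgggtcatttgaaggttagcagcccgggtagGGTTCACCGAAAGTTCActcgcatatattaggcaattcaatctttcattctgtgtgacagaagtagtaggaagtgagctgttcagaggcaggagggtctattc

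TNFAIP2 read 8.88, 8.54 and 8.86 in the controls, 11.45 and 11.41 on exp.n 30 and 42, and 9.75 on exp.n 18. All 3 arrays labelled ATRA lay above all controls, and the change was 2.11 ± 0.35 with all arrays (limma adjusted p = 0.0025) and 2.67 ± 0.18 from exp.n 30 and 42 (adjusted p = 1.7e-13). STRA6 read 6.17, 6.26 and 6.24 in the controls, 7.98 and 7.37 on exp.n 30 and 42, and 6.63 on exp.n 18. Its levels were near background in the controls, and the change from exp.n 30 and 42 was 1.46 ± 0.19 (adjusted p = 1.8e-06), while with all arrays it missed the threshold (adjusted p = 0.055, and 0.038 with experiment as a block). RARB stayed near background on all 6 arrays, with 6.11, 6.35 and 6.39 in the controls and 6.08, 6.12 and 6.13 on exp.n 18, 30 and 42. RARA, whose window also holds the half-site, changed by 0.41 from exp.n 30 and 42 and did not pass the threshold (adjusted p = 0.37). A half-site on either strand was found in 38 of 316 promoters of genes called higher (12%), 14 of 177 of genes called lower (7.91%) and 1357 of 12450 of all genes tested (10.9%). The DR5 was found in 9 of those 12450 windows (0.0723%) and in none of the windows of called genes, which says only that these letters are not in these windows.

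PLAAT4, also called retinoic acid receptor responder 3, is a phospholipase of the plasma membrane and organelles. It read 6.53, 6.22 and 6.75 in the controls, 10.93 and 10.95 on exp.n 30 and 42, and 6.70 on exp.n 18. Exp.n 18 lay inside the control range, and the change was 3.03 ± 0.70 with all arrays (limma adjusted p = 0.036) and 4.44 ± 0.21 without it (adjusted p = 3.2e-17). DHRS3, which reduces retinal back to retinol, read 7.21, 7.39 and 7.50 in the controls, 10.35 and 10.52 on exp.n 30 and 42, and 7.08 on exp.n 18. Here exp.n 18 lay below every control; the change passed the threshold only without it, at 3.07 ± 0.18 (adjusted p = 3.9e-15), against an adjusted p of 0.12 with all arrays. CYP26B1, a cytochrome P450 that clears retinoic acid, rose in both fits, by 1.16 ± 0.25 (adjusted p = 0.021) and 1.62 ± 0.16 (adjusted p = 1.6e-09). CYP26A1, its paralogue, lay near background on all 6 arrays, from 6.25 to 6.54, and changed by 0.07 from exp.n 30 and 42 (adjusted p = 0.95).

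ASB2, the specificity subunit of a ubiquitin ligase that ATRA induces in these cells, read 7.21, 6.77 and 6.85 in the controls, 10.69 and 10.50 on exp.n 30 and 42, and 6.71 on exp.n 18. PRAM1, an adaptor that PML-RARA represses, read 7.96, 7.48 and 7.42 in the controls, 11.12 and 10.95 on exp.n 30 and 42, and 7.54 on exp.n 18. Both were called only without exp.n 18 and 19, with changes of 3.65 ± 0.17 (limma adjusted p = 2.9e-17) and 3.42 ± 0.23 (adjusted p = 3.6e-13), against 2.36 (adjusted p = 0.089) and 2.26 (adjusted p = 0.098) with all arrays. CD38, an ectoenzyme that consumes NAD, and TGM2, the tissue transglutaminase, rose by 2.16 ± 0.19 and 1.93 ± 0.21 from exp.n 30 and 42 (adjusted p = 2.5e-10 and 1.6e-08) and missed the threshold with all arrays (0.13 for each). INAVA, an adaptor in innate immune signalling, read 6.53, 6.64 and 7.02 in the controls, 10.50 and 10.45 on exp.n 30 and 42, and 7.28 on exp.n 18, and rose in both fits, by 2.68 ± 0.58 (adjusted p = 0.025) and 3.75 ± 0.17 (adjusted p = 9.3e-18). Of the receptors, RXRA fell by 0.88 on the log2 scale without exp.n 18 and 19 (adjusted p = 0.0019), and RARA changed by 0.41 (adjusted p = 0.37).

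The phagocyte NADPH oxidase makes superoxide from oxygen once its cytosolic subunits join the membrane-bound cytochrome. Of its 6 measured genes 5 rose without exp.n 18 and 19, against NCF1 alone with all arrays, and the median change was 0.86. Under median scaling without those arrays 3 rose. NCF1, the cytosolic organiser p47phox, read 7.53, 7.41 and 7.70 in the controls, 13.81 and 13.95 on exp.n 30 and 42, and 7.88 on exp.n 18. Exp.n 18 lay just above the highest control and far below the other ATRA arrays. The change was 4.34 ± 1.02 with all arrays (limma adjusted p = 0.038) and 6.33 ± 0.19 from exp.n 30 and 42 (adjusted p = 4.3e-23), an 80.7-fold difference in normalized signal. NCF1 has near-identical pseudogenes, and whether the array's probe separates them was not tested. RAC2, the small GTPase of the complex, rose by 1.49 ± 0.21, and NCF4, the p40phox subunit, by 1.01 ± 0.17 (adjusted p = 3.8e-06 and 9e-05, without exp.n 18 and 19). CYBB, the catalytic gp91phox subunit, read 6.49, 6.53 and 6.29 in the controls and 7.21, 7.07 and 6.47 on exp.n 30, 42 and 18. Its rise of 0.70 ± 0.19 (adjusted p = 0.023) thus took place close to background. CYBA, its partner p22phox, was already at 11.54 to 11.77 in the controls and rose by 0.65 ± 0.13 (adjusted p = 0.0015).

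**Figure D3:**
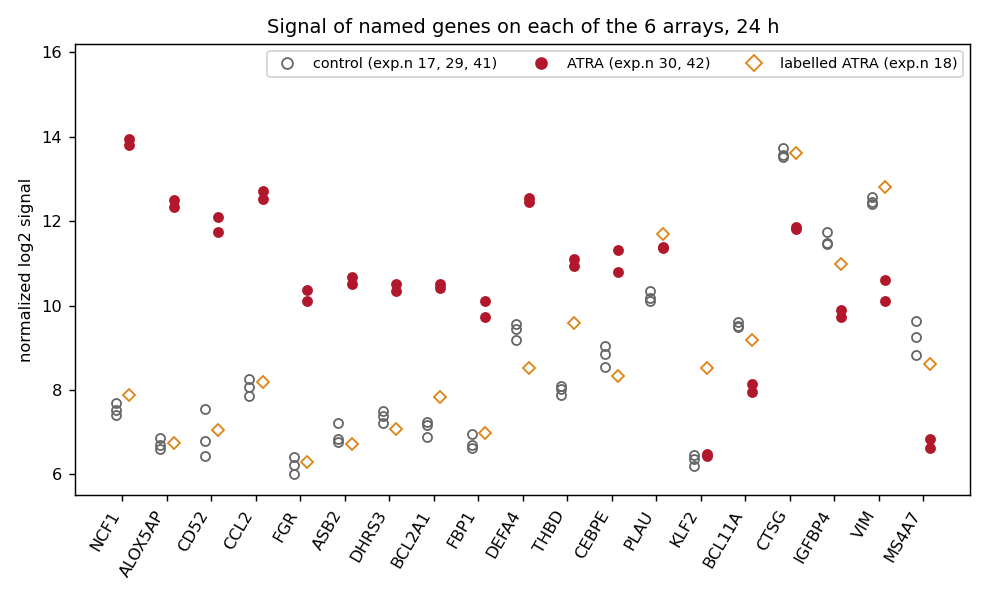
Normalized log2 signal (y axis) of 19 named genes on each of the 6 arrays at 24 h: open circles are control exp.n 17, 29 and 41, filled circles ATRA exp.n 30 and 42, diamonds exp.n 18. NCF1 read 13.81 and 13.95 on exp.n 30 and 42 and 7.88 on exp.n 18, KLF2 was high on exp.n 18 alone at 8.51, and PLAU was as high on exp.n 18 as on the other ATRA arrays.

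Of 33 measured genes of granulocyte maturation, 14 rose without exp.n 18 and 19 and 5 with all arrays (CD52, FGR, ITGAM, TREM1 and CAMP). None fell past the threshold, 19 did not pass it in the second fit, and the medians were 0.35 and 0.39. In RNA from whole cultures, more cells of a mature type and more RNA per cell cannot be told apart. ALOX5AP, the protein that hands arachidonic acid to 5-lipoxygenase, read 6.69, 6.60 and 6.86 in the controls, 12.35 and 12.51 on exp.n 30 and 42, and 6.74 on exp.n 18. The groups were far apart except for exp.n 18, which lay among the controls. The change was 5.71 ± 0.23 from exp.n 30 and 42 (limma adjusted p = 2.1e-19), 52.3-fold, and 3.81 ± 0.97 with all arrays, where it missed the threshold (adjusted p = 0.055). CD52, a small surface glycoprotein of leukocytes, read 6.43, 7.56 and 6.80 in the controls, 12.11 and 11.75 on exp.n 30 and 42, and 7.05 on exp.n 18. FGR, a SRC-family kinase of myeloid cells, read 6.22, 6.42 and 6.02 in the controls, 10.36 and 10.10 on exp.n 30 and 42, and 6.29 on exp.n 18. CD52 and FGR changed by 5.0 ± 0.28 and 4.01 ± 0.14 without exp.n 18 and 19 (adjusted p = 1.3e-15 and 5.7e-21), and by 3.38 and 2.69 with all arrays, just inside the threshold (adjusted p = 0.04998 for each).

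Of the surface receptors of the neutrophil, ITGAM, ITGAX and CSF3R rose, while FPR1 and FCGR3B, given under other observations, did not pass the threshold. ITGAM (CD11b), the alpha chain of the complement receptor CR3, read 6.36, 6.55 and 6.55 in the controls, 7.94 and 8.08 on exp.n 30 and 42, and 6.94 on exp.n 18. It rose in both fits, by 1.16 ± 0.26 (limma adjusted p = 0.026) and 1.52 ± 0.17 (adjusted p = 7.5e-08). ITGAX (CD11c) and the receptor of granulocyte colony-stimulating factor, CSF3R, rose by 1.68 ± 0.22 and 1.86 ± 0.21 without exp.n 18 and 19 (adjusted p = 1.5e-06 and 4.4e-08). A dimmer probe of CSF3R, near background, changed by -0.27. S100A8, a calcium-binding protein abundant in neutrophil cytosol, read 5.79, 6.17 and 5.80 in the controls, 7.31 and 7.54 on exp.n 30 and 42, and 5.78 on exp.n 18. Its change of 1.5 ± 0.14 (adjusted p = 4.3e-10) started from background, as did that of its partner S100A9, 1.15 ± 0.16 (adjusted p = 4.7e-06), which with all arrays passed the threshold only with experiment as a block (0.86, adjusted p = 0.048). Genes of the secondary granules were mixed: CAMP, the cathelicidin, rose by 1.11 ± 0.14 (adjusted p = 3.5e-07), while LTF, LCN2 and MMP8 changed by 0.12, -0.15 and 0.35 without passing the threshold.

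Azurophil granule genes, the products of the promyelocyte, divided. Of 14 measured, 4 rose and 5 fell without exp.n 18 and 19, with a median change of -0.16; with all arrays MS4A3 fell and none rose, with a median of -0.12 that became 0.05 under median scaling. CTSG, the serine protease cathepsin G, read 13.51, 13.74 and 13.57 in the controls, 11.82 and 11.86 on exp.n 30 and 42, and 13.62 on exp.n 18. Exp.n 18 lay inside the control range; CTSG fell by 1.77 on the log2 scale without it (SE 0.19, limma adjusted p = 2.1e-08), 3.41-fold, and missed the threshold with all arrays (adjusted p = 0.097). MPO, myeloperoxidase, had some of the highest signals, 14.71, 14.82 and 14.67 in the controls, 13.84 and 14.04 on exp.n 30 and 42 and 14.69 on exp.n 18, and fell by 0.79 (adjusted p = 0.0089) without exp.n 18 and 19. MS4A3, a membrane protein of the promyelocyte stage, read 11.79, 11.64 and 11.99 in the controls, 10.29 and 10.14 on exp.n 30 and 42, and 11.37 on exp.n 18. It lay lower on all 3 arrays labelled ATRA and fell in both fits, by 1.21 (adjusted p = 0.018) and 1.60 (adjusted p = 5.1e-07). CST7, a cysteine protease inhibitor, and RNASE2, a granule ribonuclease, fell by 1.41 and 0.65 (adjusted p = 0.00057 and 0.0023) without exp.n 18 and 19.

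The defensins moved the other way, though not every rise named here is on the list counted above. DEFA4, a microbicidal peptide of the same granules, read 9.19, 9.56 and 9.45 in the controls, 12.55 and 12.45 on exp.n 30 and 42, and 8.51 on exp.n 18. Exp.n 18 was the lowest of the 6 arrays, and the change was 3.10 ± 0.18 without it (limma adjusted p = 7.5e-15) and 1.77 ± 0.62 with it (adjusted p = 0.24). DEFA1 and DEFA3, whose transcripts are near-identical so that their signals may not be separate, rose by 2.49 ± 0.21 and 2.65 ± 0.25 (adjusted p = 9.5e-11 and 1.3e-09). CTSD, the lysosomal protease cathepsin D, rose by 1.74 ± 0.16 and BPI, which binds bacterial endotoxin, by 0.93 ± 0.23 (adjusted p = 1.1e-09 and 0.013). AZU1, PRTN3, CTSC and LYZ changed by -0.12, 0.28, -0.21 and -0.30 without passing the threshold, and ELANE, neutrophil elastase, read only 6.41 to 6.76 on the 6 arrays.

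Of 15 measured transcription factors of myeloid differentiation, 7 rose and none fell past the threshold without exp.n 18 and 19, with a median change of 0.17 over the list, and IRF1 alone rose with all arrays. IRF1, an interferon-induced activator, read 9.24, 8.93 and 9.13 in the controls, 11.73 and 11.83 on exp.n 30 and 42, and 9.52 on exp.n 18, and changed by 1.93 ± 0.47 with all arrays (limma adjusted p = 0.045) and 2.68 ± 0.21 without exp.n 18 and 19 (adjusted p = 1.5e-11). CEBPE, the C/EBP factor of late granulocyte maturation and a direct retinoid target, read 8.55, 8.85 and 9.05 in the controls, 10.79 and 11.33 on exp.n 30 and 42, and 8.32 on exp.n 18. With exp.n 18 below the controls, its rise of 2.24 ± 0.22 (adjusted p = 1.6e-09) was called only in the second fit (adjusted p = 0.16 with all arrays). CEBPB, ID2, NFE2 and ID1 rose by 1.46, 2.36, 1.66 and 1.41 and SPI1 (PU.1), the master factor of the lineage, by 0.77 (adjusted p = 0.0095), all without exp.n 18 and 19. CEBPD, KLF4 and STAT3 changed by -0.51, -0.39 and -0.40 and did not pass the threshold.

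Among 18 measured progenitor factors and receptors, BCL11A and IRX3 fell in both fits and GATA2 rose without exp.n 18 and 19; under median scaling of all arrays none fell. BCL11A, a zinc-finger repressor, read 9.50, 9.50 and 9.62 in the controls, 8.14 and 7.95 on exp.n 30 and 42, and 9.19 on exp.n 18. All 3 ATRA-labelled arrays lay below the controls, exp.n 18 by the smallest step, and it fell by 1.11 (SE 0.20, limma adjusted p = 0.0065) and by 1.5 (SE 0.12, adjusted p = 2.7e-11). IRX3, a homeobox factor, fell by 0.96 and 1.19 (adjusted p = 0.0079 and 1.1e-05), and GATA2, a stem-cell and mast-cell factor, rose by 0.97 ± 0.20 (adjusted p = 0.0014). ETV6, an ETS repressor, and ZBTB16, the PLZF gene that fuses to RARA in a rarer form of the leukaemia, were among the largest falls with all arrays, 0.85 and 0.89 (adjusted p = 0.012 and 0.013). Both were also called without exp.n 18 and 19, and ETV6 lost the call under median scaling of all arrays. MYC read 12.24, 12.64 and 12.39 in the controls, 11.90 and 11.72 on exp.n 30 and 42, and 12.08 on exp.n 18; its change of -0.62 (adjusted p = 0.091) missed the threshold in the second fit as in the first (-0.53, adjusted p = 0.22). With experiment as a block in the second fit MYC fell, at -0.70 (adjusted p = 0.013).

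**Figure D4:**
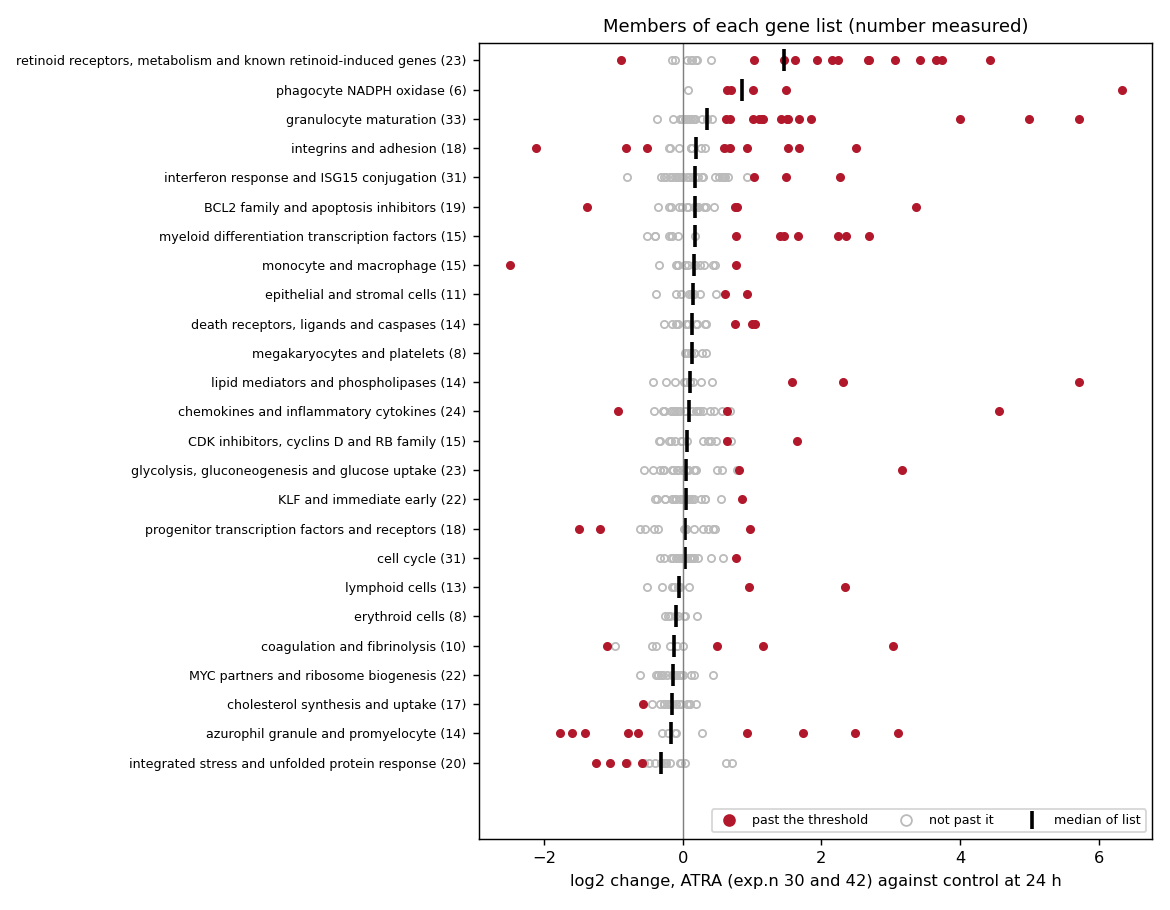
Log2 change of ATRA (exp.n 30 and 42) against control at 24 h for each measured member of the 25 gene lists, filled where it passed the threshold, with the list's median as a bar. The retinoid list had the highest median, 1.46, the azurophil granule list held 4 rises and 5 falls, and the median over all 15308 genes was -0.01.

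The largest falls without exp.n 18 and 19 were of mixed kinds. MS4A7, a membrane protein of macrophages, read 9.25, 9.63 and 8.82 in the controls, 6.85 and 6.64 on exp.n 30 and 42, and 8.61 on exp.n 18, and fell in both fits, by 1.87 (SE 0.39, limma adjusted p = 0.020) and by 2.50 (SE 0.20, adjusted p = 4e-11). On exp.n 30 and 42 it was close to background. VIM, vimentin, the intermediate filament of mesenchymal and blood cells, read 12.45, 12.57 and 12.40 in the controls, 10.61 and 10.11 on exp.n 30 and 42, and 12.82 on exp.n 18. The last value was above every control, and VIM fell only without it, by 2.12 (SE 0.20, adjusted p = 1.5e-09). IGFBP4, which binds insulin-like growth factors, read 11.48, 11.74 and 11.46 in the controls, 9.89 and 9.74 on exp.n 30 and 42, and 10.98 on exp.n 18. It fell in both fits, by 1.36 (adjusted p = 0.0065) and 1.75 (adjusted p = 3e-10). CYTL1, a cytokine-like secreted protein, CHST13, a chondroitin sulfotransferase, INHBB, the beta B subunit of inhibin and activin, and FAM43A fell by 2.0, 1.98, 1.54 and 1.53 without exp.n 18 and 19. Of these INHBB also fell with all arrays (1.11, adjusted p = 0.047), as did PLAC8 and TAMALIN, by 0.96 and 0.98 (adjusted p = 0.0065 and 0.029). INHBB, PLAC8 and TAMALIN were called in both fits and lost the call under median scaling of all arrays.

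Integrin and adhesion genes included 6 rises and 3 falls among 18 without exp.n 18 and 19 and 3 rises with all arrays. ITGB7, the integrin beta 7 chain, read 6.29, 6.36 and 6.35 in the controls, 8.88 and 8.79 on exp.n 30 and 42, and 6.59 on exp.n 18, and rose in both fits, by 1.75 ± 0.37 (limma adjusted p = 0.021) and 2.50 ± 0.14 (adjusted p = 2.5e-15). The falls were VIM, the tetraspanin CD9 (0.82, adjusted p = 0.016) and the hyaluronan receptor CD44 (0.52, adjusted p = 0.037). CD9 read 9.94 on exp.n 18, above all controls (9.24 to 9.44), and 8.53 and 8.56 on exp.n 30 and 42.

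Survival genes of the BCL2 family moved in opposite directions. BCL2A1, an anti-apoptotic member typical of myeloid cells, read 7.23, 7.18 and 6.87 in the controls, 10.41 and 10.50 on exp.n 30 and 42, and 7.84 on exp.n 18. All ATRA-labelled arrays lay above the controls, and it rose by 2.49 ± 0.53 with all arrays (limma adjusted p = 0.021) and 3.36 ± 0.24 without exp.n 18 and 19 (adjusted p = 1.4e-12), 10.3-fold. BCL2, the founding anti-apoptotic member, read 8.81, 9.18 and 8.94 in the controls, 7.87 and 7.32 on exp.n 30 and 42, and 8.74 on exp.n 18. It fell by 1.38 (SE 0.17, adjusted p = 3.6e-07) without exp.n 18 and 19 and missed the threshold with all arrays (adjusted p = 0.085). The pro-apoptotic BAK1 and BIK rose by 0.79 and 0.75 (adjusted p = 0.0087 and 0.0037), and the other 15 of 19 measured members, MCL1, BAX and BCL2L1 among them, did not pass the threshold. Of 14 death receptors, ligands and caspases, CASP9, TNFRSF1B and TNFRSF10B rose, by 1.04, 1.0 and 0.75, without exp.n 18 and 19. TNFSF10, the TRAIL ligand, read 6.32, 7.02 and 6.84 in the controls and 6.68, 6.39 and 6.87 on exp.n 18, 30 and 42, so the groups overlapped and no change was called (-0.10, adjusted p = 0.95).

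Cell cycle genes gave 1 call among 31, TK1, thymidine kinase, with a rise of 0.77 ± 0.16 (limma adjusted p = 0.0014) without exp.n 18 and 19, and a median change of 0.03; this share is near the 4.06% of all genes. FOXM1, a mitotic factor, rose too with experiment as a block (0.48, adjusted p = 0.041). CDKN2D, the CDK inhibitor p19, read 7.98, 7.84 and 7.82 in the controls, 9.55 and 9.51 on exp.n 30 and 42, and 8.41 on exp.n 18, and rose by 1.28 ± 0.21 (adjusted p = 0.0025) and 1.65 ± 0.15 (adjusted p = 2.9e-10). CCND1, cyclin D1, rose by 0.63 (adjusted p = 0.0058) in the second fit. None of the 22 measured MYC partners and ribosome biogenesis genes was called in either fit, with a median of -0.14 without exp.n 18 and 19 and -0.17 with all arrays, which became 0.10 with all arrays under median scaling; the adjusted p of MYC itself was 0.091 and 0.22. There were exceptions in other settings: without exp.n 18 and 19, experiment as a block gave 1 rise (MNT, 0.48, limma adjusted p = 0.043) and 2 falls (MYC and NPM1, the latter at -0.47, adjusted p = 0.012), and the authors' values gave 1 rise and 2 falls, with 1 fall when all arrays were used.

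Coagulation is a clinical matter in this leukaemia, which bleeds and clots. THBD, thrombomodulin, the endothelial anticoagulant receptor, read 8.09, 8.01 and 7.87 in the controls, 11.11 and 10.94 on exp.n 30 and 42, and 9.58 on exp.n 18. It lay at least 1 higher on every ATRA-labelled array than on any control, and rose by 2.55 ± 0.32 (limma adjusted p = 1.8e-05) and 3.03 ± 0.19 (adjusted p = 7.9e-14). PLAU, the plasminogen activator urokinase, read 10.12, 10.19 and 10.35 in the controls, 11.38 and 11.38 on exp.n 30 and 42, and 11.69 on exp.n 18, the highest of the 6. Its change was 1.27 ± 0.13 with all arrays (adjusted p = 8.2e-07) and 1.16 ± 0.15 without exp.n 18 and 19 (adjusted p = 6.1e-07). ANXA2, annexin A2, which binds plasminogen and its activator on promyelocytes, read 9.15, 8.95 and 9.05 in the controls, 7.88 and 8.05 on exp.n 30 and 42, and 10.40 on exp.n 18. Exp.n 18 lay on the opposite side of the controls, and ANXA2 fell by 1.09 (adjusted p = 0.00048) only without it. F3, tissue factor, spread from 6.72 to 8.00 in the controls, with 6.66 and 6.34 on exp.n 30 and 42 and 8.25 on exp.n 18, and its change of -0.98 ± 0.34 missed the threshold (adjusted p = 0.12). In all, 3 of 10 coagulation genes rose and 1 fell in the second fit, and THBD and PLAU rose with all arrays.

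Among 24 chemokines and cytokines CCL2 stood out. CCL2, which attracts monocytes, read 7.86, 8.07 and 8.26 in the controls, 12.52 and 12.72 on exp.n 30 and 42, and 8.18 on exp.n 18, and rose by 3.08 ± 0.73 (limma adjusted p = 0.040) and 4.56 ± 0.18 (adjusted p = 9.6e-20), 23.5-fold in the second fit. CCL23 rose by 0.64 (adjusted p = 0.0055) without exp.n 18 and 19, from background, and CCL5 passed the threshold there only with experiment as a block (0.52, adjusted p = 0.035). TNF read 8.63, 8.35 and 8.60 in the controls, 7.54 and 7.65 on exp.n 30 and 42, and 9.94 on exp.n 18, and fell by 0.94 (adjusted p = 0.0088) only without exp.n 18 and 19. CCR1, a chemokine receptor, rose in both fits, by 2.17 and 3.0 (adjusted p = 0.026 and 3.6e-12). Of 31 interferon-response genes, IFI6, IFI35 and UBA7, the enzyme that activates ISG15, rose without exp.n 18 and 19, by 2.27, 1.5 and 1.04, and none with all arrays; the list's median change was 0.18. IFIT1, MX1 and OAS1, classical interferon targets, changed by -0.32, -0.01 and 0.09 and did not pass the threshold.

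Metabolic genes were called singly. FBP1, fructose-1,6-bisphosphatase of gluconeogenesis, read 6.97, 6.69 and 6.63 in the controls, 10.11 and 9.72 on exp.n 30 and 42, and 6.97 on exp.n 18, which lay just above the highest control. It rose by 2.18 ± 0.52 (limma adjusted p = 0.043) and 3.16 ± 0.16 (adjusted p = 1.8e-16), and with HK3, a hexokinase of myeloid cells that rose near background (0.62 and 0.82), made 2 calls among 23 genes of glycolysis, gluconeogenesis and glucose uptake. In the second fit with experiment as a block HK2, a hexokinase, fell and PKM, pyruvate kinase, rose (-0.64 and 0.64, adjusted p = 0.016 and 0.026). SLC2A5, the fructose transporter, read 7.83, 8.15 and 8.09 in the controls, 11.75 and 11.85 on exp.n 30 and 42, and 7.48 on exp.n 18, and rose by 3.78 ± 0.25 (adjusted p = 1.1e-13) without exp.n 18 and 19. Besides ALOX5AP, 2 of 14 lipid mediator genes rose in the second fit: PTGES, prostaglandin E synthase, by 2.31 ± 0.18 and PTGS1, cyclooxygenase 1, by 1.57 ± 0.23 (adjusted p = 1.5e-11 and 8.1e-06). ALOX5, the lipoxygenase itself, changed by 0.15. Genes of the stress and unfolded protein response had the lowest median of the lists, -0.31 without exp.n 18 and 19 and -0.29 with all arrays, with -0.01 under median scaling of all arrays. Of its 20 members ASS1, which makes argininosuccinate, PSAT1 of serine synthesis, XBP1 and the chaperone HSP90B1 fell in the second fit, by 1.24, 1.04, 0.82 and 0.59, and none fell with all arrays.

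At several genes exp.n 18 lay outside the range of the other 5 arrays. CDKN1A, the CDK inhibitor p21, read 7.33, 7.13 and 7.09 in the controls, 7.69 and 8.07 on exp.n 30 and 42, and 8.47 on exp.n 18. It was called with all arrays (0.89 ± 0.21, limma adjusted p = 0.043) and not without exp.n 18 and 19 (0.69 ± 0.23, adjusted p = 0.086). JUND, an AP-1 factor, read 11.31, 11.12 and 11.41 in the controls, 12.24 and 12.03 on exp.n 30 and 42, and 12.40 on exp.n 18, and rose in both fits, by 0.94 (adjusted p = 0.00022) and 0.85 (adjusted p = 0.00015). KLF2 changed by 0.81 with all arrays and by 0.13 without exp.n 18 and 19, and neither passed the threshold (adjusted p = 0.55 and 0.90). HMGCS1 fell by 0.57 without exp.n 18 and 19 (adjusted p = 0.023), the only call among 17 cholesterol genes, and had an adjusted p of 1.0 with all arrays. The summed signal of those 17 genes, on the linear scale, was 15450 to 16378 in the controls, 19696 on exp.n 18 and 13882 and 15151 on exp.n 30 and 42.

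Of the markers of the labelled cell, MPO, CTSG, MS4A3 and AZU1 had control means above the 90th percentile of signals (8.59), whereas ELANE was near background. The levels of the other markers set for this cell, PRTN3, CD33 and CEBPA, are not given here. Of 13 lymphoid genes CD79A and NKG7 rose without exp.n 18 and 19, by 2.35 and 0.96 (limma adjusted p = 1.8e-10 and 0.00062), and CD79B fell only with experiment as a block (-0.47, adjusted p = 0.047), while the B-cell marker MS4A1 stayed near background and CD3D, a T-cell gene, was at 10.00 to 10.11 in the controls already. None of 8 erythroid and 8 megakaryocyte genes was called in either fit, with HBB, ALAS2, PF4 and GP9 near background; for lists of 8 genes, 0 calls is near the 4.06% of all genes. Among 11 epithelial and stromal genes PECAM1 and KRT8 rose, by 0.92 and 0.61 (adjusted p = 4.5e-06 and 0.026), with KRT19 and COL1A1 near background. The summed signal of the lymphoid list was 2285 to 2361 in the controls, 2518 and 2738 on exp.n 30 and 42 and 2150 on exp.n 18; that of the epithelial and stromal list was 1694 to 2058, 2244 and 2407, and 2012. For erythroid genes the sums were 3469 to 4269, 3403 and 3685, and 5344, and for megakaryocyte genes 652 to 718, 753 and 803, and 787. Monocyte genes, a neighbouring fate, gave 1 rise (CSF1R, 0.77) and 1 fall (MS4A7) among 15, and CD14 stayed near background, from 6.11 to 6.48. The part of other cells in these results was not tested.

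The comparison at 24 h was set against those at 8 and 48 h by testing the difference between the ATRA effects. Control and ATRA arrays at 24 h enter both differences. With all arrays no gene differed between 24 and 8 h by limma (0 of 15308, 563 with an unadjusted p below 0.05), and 11 differed between 48 and 24 h (0.0719%). Without exp.n 18 and 19, 37 differed between 24 and 8 h (0.242%), 30 with a higher and 7 with a lower effect at 24 h, and 12 between 48 and 24 h (0.0784%). With experiment as a block these became 70 (0.457%) and 21 (0.137%). With exp.n 18 alone left out, the counts were 0 (681 with an unadjusted p below 0.05) and 5 (0.0327%). The 11 calls between 48 and 24 h with all arrays became 5 without control exp.n 17, 29 or 41, 6 without the third ATRA array at 48 h, and 5 and 6 without the second and the third control at 48 h.

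Without exp.n 18 and 19, the ATRA effect on DEFA4 was 0.64 at 8 h, 3.10 at 24 h and 3.77 at 48 h. The step from 8 to 24 h was 2.46 ± 0.25 (limma adjusted p = 2e-07), while the step from 24 to 48 h was not called (adjusted p = 0.90). ALOX5AP followed with 3.07, 5.71 and 6.74 (first step 2.64 ± 0.31, adjusted p = 2.6e-06), CCL2 with 2.57, 4.56 and 4.79 (adjusted p = 3.4e-06), CD52 with 2.81, 5.0 and 5.69 (adjusted p = 0.0015) and TGM3, an epidermal-type transglutaminase, with 1.45, 3.45 and 2.63 (adjusted p = 2.6e-06). In G0S2, an inhibitor of the lipase ATGL, both steps were called, with effects of 0.71, 2.80 and 4.78 (adjusted p = 1.6e-05 and 9.8e-05). CTSG was at -0.08, -1.77 and -3.59, with both steps called (adjusted p = 0.00025 and 0.00012). VIM, MS4A7, CHST13, CYTL1 and IGFBP4 also had lower effects at 24 h than at 8 h (adjusted p from 0.0015 to 0.012). Without those arrays and with experiment as a block the effects at 24 h were also higher than at 8 h for ITGAX, CD79A, CSF3R, CCND1 and CYP26B1 (by 1.23, 1.03, 1.02, 0.78 and 0.87, adjusted p from 0.0054 to 0.041) and lower for CST7, CCL3L1 and ASS1 (-1.55, -1.49 and -1.15, adjusted p from 0.00059 to 0.019).

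Later genes differed between 24 and 48 h. LAMB3, the laminin beta 3 chain, had effects of 0.22, 1.37 and 4.30 at 8, 24 and 48 h, with a second step of 2.93 ± 0.26 (limma adjusted p = 9.9e-09) without exp.n 18 and 19. BPI had 0.10, 0.93 and 3.70, S100A8 0.22, 1.5 and 3.42, and LILRA5, a leukocyte immunoglobulin-like receptor, 0.26, 0.91 and 2.35 (second step adjusted p = 1.6e-06, 3.4e-08 and 0.0048). ASB2 and TNFRSF1B, a TNF receptor, rose further, from 3.65 to 4.92 and from 1.0 to 2.36 (adjusted p = 0.0082 and 0.0091). MMP9, a gelatinase, turned from 1.02 to -0.71 and INAVA went from 3.75 to 2.61 (adjusted p = 0.0059 and 0.028). WT1, a zinc-finger factor of leukaemic blasts, was at -0.43, -0.40 and -1.38 (second step adjusted p = 0.0053). The second step was also called with experiment as a block for ASS1, IGFBP4 and TREM1 (-1.42, -1.0 and -1.15, adjusted p from 0.0027 to 0.041) and for DEFA1 and DEFA3 (0.90 and 1.18, adjusted p = 0.041 for each), and, with all arrays, for ASS1 and MMP9 (-1.93 and -1.62, adjusted p = 0.021 and 0.0087). For DHRS3, PRAM1, TNFAIP2, THBD, BCL11A and IRX3 neither step was called; their effects at 8 h were already 2.90, 2.82, 2.35, 2.16, -1.58 and -1.37.

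**Figure D5:**
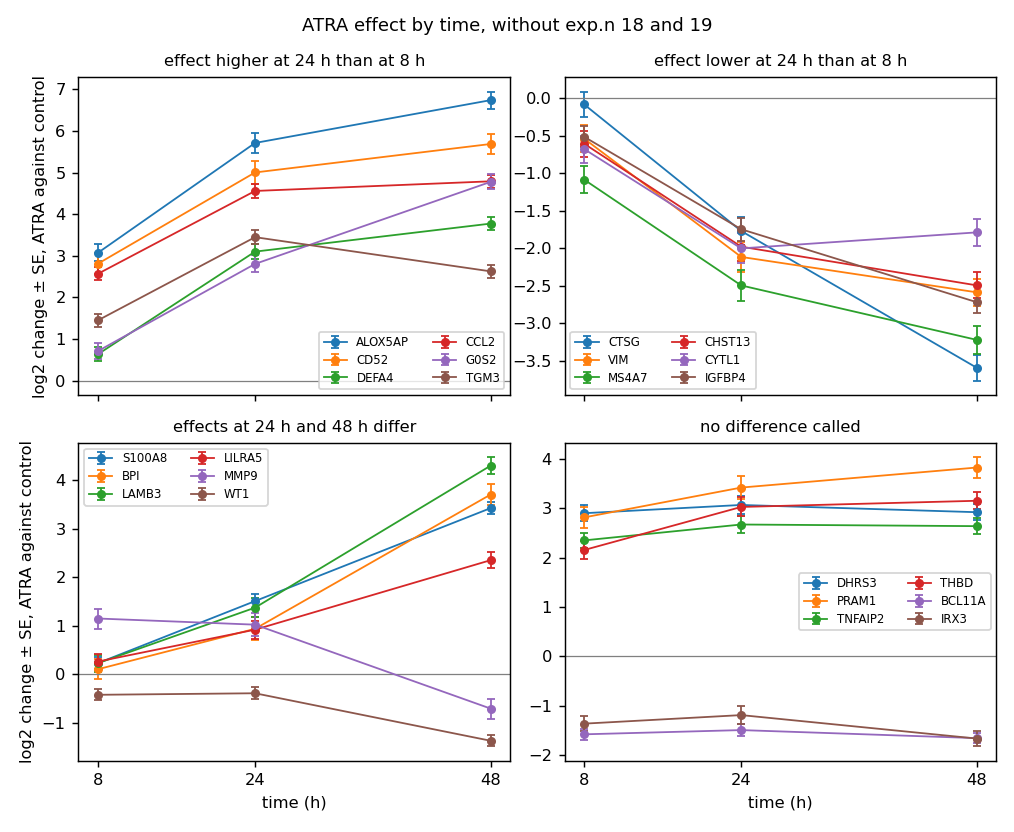
Log2 change ± SE of ATRA against control at 8, 24 and 48 h (x axis) without exp.n 18 and 19, in 4 panels by whether the change at 24 h differed from that at 8 or 48 h. DEFA4 went from 0.64 at 8 h to 3.10 at 24 h, LAMB3 from 1.37 at 24 h to 4.30 at 48 h, and DHRS3 was at 2.90, 3.07 and 2.92.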

How the data were processed

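Each array's deposited values are intensity on a linear scale. The authors averaged the beads of a probe and did not correct the background, using BeadStudio 1.3.1.5, per the labels. The authors' own table holds log2 values, scale settled by its match to the arrays (36 of 36 columns correlated best with their own array, medians 6.68 to 6.69, not centred); it served as an alternative. How it was normalized is not given in the sources used here.

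The 47293 probes of the 36 arrays were background corrected with normexp (offset 50), quantile normalized and log2 transformed in limma 3.58.1 under R 4.3.3. A probe was kept if it exceeded the median of its array on 3 or more arrays (41648 probes). Probes were named through the platform annotation: 18468 had 1 gene symbol, none several and 28825 none, and 18451 matched RefSeq by Entrez ID. The brightest probe stood for each of 15308 genes, of which 1439 had several. Less bright probes of named genes changed by -0.27 to 0.86 without exp.n 18 and 19, the highest being 1 of NCF4. Those of CSF3R, BCL2, BCL11A, CASP9 and TNFRSF10B changed by -0.27, -0.07, -0.08, 0.22 and -0.01, and those of CDKN2D by 0.29 and -0.20. Their control means were near background, 6.18 to 6.56, so the changes of these genes rest on 1 probe each. Less bright probes of CD79A, ASS1, CDKN1A and CCL23 changed by 0.39, -0.25, 0.06 and 0.37. The probes used for these genes changed by 2.35, -1.24, 0.69 and 0.64. Those of LILRA5 changed by -0.11 and 0.17, against 0.91 for the probe used. The control means of these dimmer probes were 6.08 to 6.73, and the calls of these genes also rest on 1 probe each. No detection p-value was used. One linear model with 12 group means was fitted (24 residual degrees of freedom; 22 without exp.n 18 and 19), with lmFit and eBayes and Benjamini-Hochberg adjustment. All 36 arrays share 1 estimate of spread. Experiments 1, 2 and 3 were inferred from title numbers in runs of 12, as no label states the experiment of an array. The series text gives independent experiments on different days, and pairing the samples by these numbers is an assumption. Same-numbered control and ATRA arrays at 24 h deviated from their group means with correlations of 0.16, 0.02 and 0.13. Exp.n 18 entered the ATRA mean, so these correlations cannot decide how far pairing by day matters. The experiment as a replicate block was an alternative, as the main fit had none. Alternatives were other backgrounds, scalings, filters and probe rules, fewer arrays, each replicate left out and a replicate block. The code was tested on simulated data.

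Named genes were the 10 largest rises and falls of each fit whose groups did not overlap, up to 3 called members of each list per direction, 32 set genes and the 5 largest differences between times, 101 in all; other genes were named from the lists. The members and the 25 lists (434 of 480 genes measured) were chosen with earlier results of these data known.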

Additional observations from a re-analysis of the deposited data

Results flagged for a closer look

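The ATRA effect differed between 48 h and 24 h by the test of the difference itself (limma, all arrays as labelled, Benjamini-Hochberg adjustment over 15308 genes) for 8 named genes. Given as 48 h minus 24 h on the log2 scale, the difference was 3.40 for LAMB3 (adjusted p = 2.3e-05), 3.01 for BPI (adjusted p = 2.3e-05), 2.46 for S100A8 (adjusted p = 0.0017), 1.75 for LILRA5 (adjusted p = 0.023), 1.72 for TNFRSF1B (adjusted p = 0.042) and 1.05 for HK3 (adjusted p = 0.033). CTSG and WT1 differed in the other direction, by -2.42 and -1.10 (adjusted p = 0.023 and 0.0027). Without exp.n 18 and 19 the differences were 2.93, 2.77, 1.92, 1.43, 1.36 and 0.85 for the first 6 genes and -1.82 and -0.98 for CTSG and WT1. Of the 8, HK3 was then no longer called (adjusted p = 0.11).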

How the results depend on the processing

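The 92 calls at 24 h ranged from 1 (without experiment 2) to 496 (without experiment 1) when 1 array or experiment was left out. They became 622 without exp.n 18 and 19, 334 with median scaling, 60 without background correction, 60 with the mean over a gene's probes, 3 from the 24 h arrays only and 1 from the 6 arrays of the comparison only. Alternatives chosen after seeing the data, all without exp.n 18 and 19, gave 397 with median scaling, 601 from the authors' values, 637 from 5 arrays, and 483, 500, 532, 332 and 335 when exp.n 17, 29, 41, 30 or 42 was left out too. The count stayed within 1.5 times with the authors' values (85) and without the filter on dim probes (90), yet 11 of the 32 named genes called with all arrays lost the call in the former and 2, CD52 and FGR, in the latter.

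No call between 24 and 8 h with all arrays (0, range 0 to 19 with 1 array or experiment left out) became 37 without exp.n 18 and 19, and 28 and 46 when these were also median scaled or taken from the authors' values. The 11 calls between 48 and 24 h ranged from 1 to 14 with 1 array or experiment left out, and were 7 with median scaling and 5 from the arrays of these times only.

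A replicate block gave 131 calls at 24 h with all arrays, and without exp.n 18 and 19 it gave 769 at 24 h, 70 between 24 and 8 h and 21 between 48 and 24 h. Apart from the genes given with the block in the report, it changed no call among the named and listed genes.

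Changes of sign concerned 9 genes that the fit of all arrays did not call. With 1 array or experiment left out, ANXA2 ranged from -1.09 to 0.17, HMGCS1 from -0.68 to 0.30, TNF from -0.94 to 0.27, TNFSF10 from -0.30 to 0.19, ELANE from -0.098 to 0.11, CYP26A1 from -0.028 to 0.12, F3 from -0.98 to 0.092 and PROS1 from -0.013 to 0.50. Median scaling gave 0.047 for ANXA2, 0.27 for HMGCS1, 0.17 for TNF and 0.038 for WT1, and the authors' values gave 0.016 for HMGCS1. Without exp.n 18 and 19 ELANE was at -0.089, also from 5 arrays only, at -0.087 with the replicate block, -0.10 with median scaling and -0.084 from the authors' values; with exp.n 17, 29, 41, 30 or 42 left out too it was at -0.098, -0.066, -0.10, -0.057 and -0.12. CYP26A1 was at -0.076 without exp.n 18, 19 and 42, and TNFSF10 at 0.048 and 0.15 without exp.n 18, 19 and 29 or 30. The cause of these moves was not tested.

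Limits: ATRA rests on 2 arrays in the second fit, signals near 6.34 hide changes of dim genes, and whether exp.n 18 and 19 hold the RNA their labels give was not settled here.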

Other observations

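Further genes of the granulocyte and adhesion lists rose at 24 h. TREM1, an activating receptor of neutrophils and monocytes, read 7.53, 6.85 and 7.32 in the controls, 8.20 and 8.58 on exp.n 30 and 42, and 7.92 on exp.n 18. It rose in both fits, by 1.00 ± 0.19 with all arrays (limma adjusted p = 0.008) and 1.16 ± 0.20 without exp.n 18 and 19 (adjusted p = 0.00011). SELPLG, the ligand of P-selectin, also rose in both, by 0.75 ± 0.17 and 0.92 ± 0.18 (adjusted p = 0.036 and 0.00093). PTAFR, the receptor of platelet-activating factor, rose by 1.42 ± 0.18, ITGB2, the integrin beta 2 chain shared by CD11b and CD11c, by 0.68 ± 0.18, and CXCR2, a receptor of CXCL8, by 0.63 ± 0.16 without exp.n 18 and 19 (adjusted p = 5.7e-07, 0.021 and 0.013). DHRS9, a dehydrogenase that acts on retinol, read 6.31, 6.92 and 7.07 in the controls, 9.32 and 9.59 on exp.n 30 and 42, and 6.83 on exp.n 18. It rose by 1.82 ± 0.44 with all arrays (adjusted p = 0.043) and by 2.69 ± 0.26 without exp.n 18 and 19 (adjusted p = 2.2e-09). FPR1 and FCGR3B, a formyl peptide receptor and an Fc receptor of mature neutrophils, changed by 0.08 and -0.02 and did not pass the threshold.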
